A study of Mus musculus with 4 samples.

Results

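RNA from mouse embryonic stem cells taken through cardiac differentiation was examined for 10 genes that mark undifferentiated stem cells: the developmental pluripotency-associated genes Dppa2, Dppa3, Dppa4 and Dppa5a, and the stem cell markers Zfp42, Utf1, L1td1, Tdgf1, Gdf3 and Tcl1. They were chosen by name, and each matched 1 of the 24637 genes in the deposited table of normalised read counts. The table holds 4 polyA RNA-seq libraries, 2 labelled WT (genotype Taf4+/+) and 2 labelled Taf4a-/- (genotype Taf4-/-). In all of them embryonic stem cells had been grown as embryoid bodies for 5 days in 20% serum and then plated on gelatin for 9 days, and the labels call the sample day 9 cardiac cells. Taf4a encodes a subunit of TFIID, the complex that brings RNA polymerase II to promoters, and the null allele lacks exons 11 and 12. The mutant lines came from blastocysts of crosses between heterozygous mice, so the allele was inherited rather than induced in the dish, and both genotypes had been kept on inactivated mouse embryonic fibroblast feeders. The study describes its replicates as biological and its lines as independent, but not which line gave which library.

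The targeted gene did not mark the libraries by its count. Taf4a stood at 889 and 678 normalised counts in WT replicates 1 and 2 and at 1722 and 1799 in replicates 1 and 2 of the libraries labelled Taf4a-/-, a log2 difference of 1.18 (SE 0.16) towards the mutant label. A count over the whole gene cannot separate the deleted exons from the rest, and the genotype is therefore given below as the label states it. The recovered library totals lay between 21732746 and 27733034 reads, so that 1 read was worth between 0.877 and 1.11 normalised counts. Cardiomyocyte markers, 12 in all, summed to 31596 and 29542 counts in the WT libraries and to 3273 and 3064 in the mutant ones. Markers of the labelled cell type were thus present in both WT libraries, and their summed counts were lower in the mutant ones.

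Dppa genes were named for an expression pattern that follows the pluripotent state. Dppa2 and Dppa4 are SAP-domain proteins that act as a pair on chromatin, Dppa3 (Stella) is a maternal factor that interferes with Uhrf1 and so with maintenance DNA methylation, and Dppa5a (Esg1) is an RNA-binding protein with a KH-type domain. Zfp42 (Rex1), Utf1 and L1td1 are stem cell markers of the nucleus and cytoplasm, Tdgf1 (Cripto) and Gdf3 belong to Nodal signalling, and Tcl1 is a co-activator of the kinase Akt. Such genes are used to tell undifferentiated cells from their progeny, since their expression declines as embryonic stem cells leave pluripotency.

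Every gene of the 10 was higher in both libraries labelled Taf4a-/- than in either WT library. In the limma fit over all genes, 9 of the 10 were called higher at an adjusted p under 0.05 and none lower, with Tdgf1 as the exception, and all 10 had an unadjusted p under 0.05 on the higher side. Among all 16926 genes tested, 11.3% were called higher and 17.3% lower, 28.6% in all. At an adjusted p under 0.01, 8 of the 10 were called higher, against 1.96% of all genes. Under quantile normalization the share of higher calls among all calls went from 39.4% to 52.2%, and the 9 calls among these genes stayed. Both mutant libraries lay above both WT libraries at 34.5% of all genes tested, against 10 of 10 here. The median log2 fold change of the 10 genes was 2.78, against -0.01 over all genes tested, and 7 of the 10 exceeded a log2 fold change of 2, as did 1.95% of all genes. All 10 exceeded 1, as did 6.79% of all genes. Counted together the 10 genes took 0.0145% and 0.00652% of the WT libraries and 0.0439% and 0.0478% of the libraries labelled Taf4a-/-. In bulk RNA a larger share of cells that express a gene and more RNA of it per cell cannot be told apart.

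Of the 10 genes, 6 (Dppa2, Dppa3, Dppa4, Dppa5a, Zfp42 and Utf1) were among those the study itself displayed from these samples, so their direction is not independent evidence. Nor is that of the other 4, which were chosen with earlier results of these data known. Of these, 3 were called higher, with log2 fold changes of all 4 between 1.58 and 3.25.

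**Figure D1:**
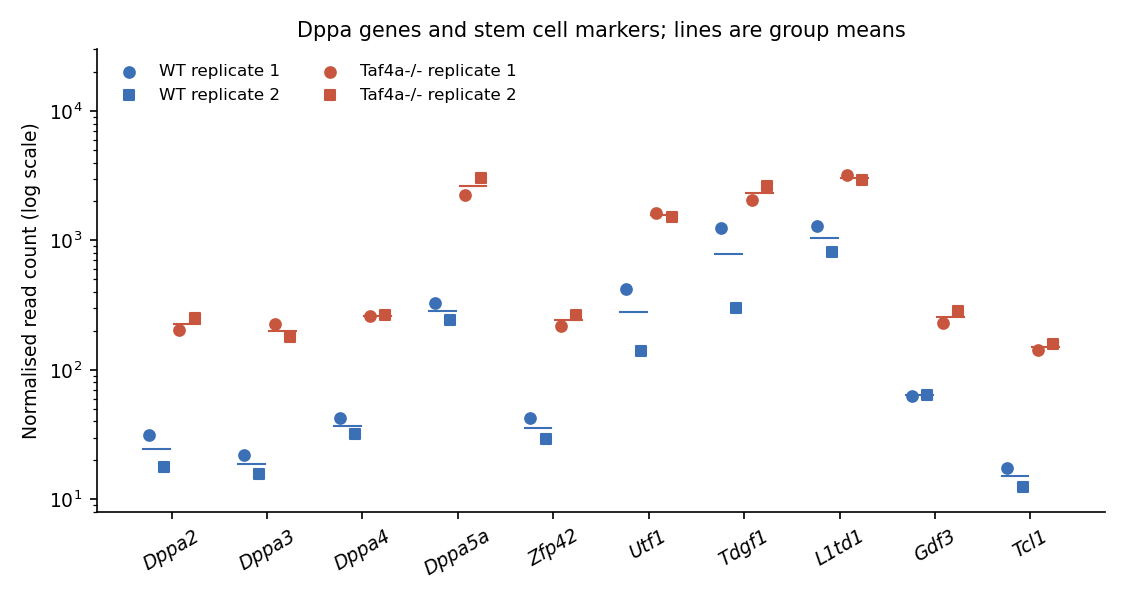
Normalised read count (log scale) of the 10 genes in each of the 4 libraries, WT in blue and Taf4a-/- in red, with replicate 1 as circles, replicate 2 as squares and the group mean as a line. Red points lie above blue points for all 10 genes, by the smallest margin at Tdgf1 (2045 against 1257) and with a wide spread between the blue points at Tdgf1 and Utf1.

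The chromatin pair Dppa2 and Dppa4 lie side by side on chromosome 16, which places them in 1 locus as well as in 1 complex. Dppa4 (ENSMUSG00000058550, chr16:48283848-48294405, plus strand, mm9) ends 16.2 kb before Dppa2 (ENSMUSG00000072419, chr16:48310590-48319836, plus strand, mm9) begins. Dppa2 was measured at 31.6 and 17.7 normalised counts in the WT libraries and at 202 and 250.0 in the libraries labelled Taf4a-/-. Dppa4 was measured at 42.1 and 32.2 in WT and at 258 and 265 in Taf4a-/-. The lowest mutant library exceeded the highest WT library 6.39-fold for Dppa2 and 6.14-fold for Dppa4, so neither gene overlapped between the groups. The log2 fold changes were 3.19 (SE 0.36, limma adjusted p = 0.0035) for Dppa2 and 2.80 (SE 0.27, adjusted p = 0.0023) for Dppa4. Their 95% intervals, 2.31 to 4.08 and 2.14 to 3.45, overlap, and no difference between the partners was tested.

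Dppa3, the maternal factor, had the largest log2 fold change of the 10 genes in the main limma fit. It lies on chromosome 6 (ENSMUSG00000046323, chr6:122576428-122580290, plus strand, mm9) and was measured at 21.9 and 15.6 normalised counts in the WT libraries and at 224 and 178 in the Taf4a-/- libraries. Behind the lower values stand 25 and 15 reads, so counting error limits their precision. The group means were 18.8 ± 4.48 in WT and 201 ± 32.6 in Taf4a-/- (SD, n = 2 each), a 10.7-fold difference. The limma log2 fold change was 3.36 (SE 0.33, adjusted p = 0.0024), rank 51 among the rises of all 16926 genes tested. With a pseudocount of 10 the log2 fold change of Dppa5a was larger (3.17 against 2.88 for Dppa3). Without Taf4a-/- replicate 1 those of Dppa5a (3.43), Dppa2 (3.35) and Tcl1 (3.32) were larger than that of Dppa3 (3.20).

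Dppa5a, the KH-type RNA-binding member, stood at a far higher level per kilobase than the other Dppa genes and had a fold change of like size. At chr9:78214859-78215984 on the minus strand (ENSMUSG00000060461, mm9) it is a compact gene of 3 exon blocks and 619 exonic nucleotides. It was measured at 326 and 241 normalised counts in WT and at 2246 and 3034 in Taf4a-/-. The WT libraries did not come near the mutant ones, whose lower value was 6.89-fold above the higher WT value. Its log2 fold change of 3.21 (SE 0.21, limma adjusted p = 0.0010) had the smallest standard error of the 10 genes.

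Zfp42, a zinc finger protein of the Yy1 family that arose by retroposition, and Utf1, a chromatin-associated protein, are nuclear markers of undifferentiated cells. Zfp42 (ENSMUSG00000051176, chr8:44380422-44392363, minus strand, mm9) was measured at 42.1 and 29.1 normalised counts in WT and at 219 and 268 in Taf4a-/-. Its log2 fold change was 2.76 (SE 0.30, limma adjusted p = 0.0032). Yy1 itself, which is present in most cells, stood at 3012 and 2948 counts in WT and at 3342 and 3358 in Taf4a-/- and was not called (log2 fold change 0.17, limma adjusted p = 0.28).

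Utf1 (ENSMUSG00000047751, chr7:147129688-147131011, plus strand, mm9) was measured at 421 and 139 counts in WT and at 1637 and 1516 in Taf4a-/-. The mutant libraries agreed closely, whereas WT replicate 1 stood 3.02-fold above WT replicate 2. Despite that spread the lower mutant library was 3.60-fold above the higher WT one. The log2 fold change was 2.70 (SE 0.47, limma adjusted p = 0.0117). With WT replicate 2 left out it was 1.90 (adjusted p = 0.0345), and with WT replicate 1 left out 3.49 (adjusted p = 0.0144).

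L1td1, an RNA-binding protein derived from the first open reading frame of a LINE-1 element, had the smallest log2 fold change of the 10 genes in the main limma fit. It lies at chr4:98393425-98405171 on the plus strand (ENSMUSG00000087166, mm9) and was measured at 1293 and 808 normalised counts in WT and at 3221 and 2904 in Taf4a-/-. Here too the groups did not overlap, and the log2 fold change was 1.58 (SE 0.23, limma adjusted p = 0.0064). Without WT replicate 2 the log2 fold change of Tdgf1 was smaller (0.88 against 1.24 for L1td1). Lin28a, Lin28b, Igf2bp1, Igf2bp3 and Msi2 encode RNA-binding proteins that work in the same RNA particles as L1td1 in stem cells. Of these 5 genes, 2 were called higher and 3 were not called, beside 11.3% of all genes called higher. Lin28b, a repressor of let-7 processing, had a log2 fold change of 0.94 (limma adjusted p = 0.0247) and Igf2bp1, an mRNA-stabilising protein, of 0.78 (adjusted p = 0.0210). Without WT replicate 2 or without Taf4a-/- replicate 2 there was 1 call among the 5, and without Taf4a-/- replicate 1 there were 0.

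Tdgf1 and Gdf3 act in Nodal signalling, Tdgf1 as the membrane co-receptor and Gdf3 as a ligand of the TGF-beta family. Gdf3 (ENSMUSG00000030117, chr6:122555421-122560105, minus strand, mm9) was measured at 63.1 and 64.4 counts in WT and at 231 and 285 in Taf4a-/-, the smallest difference between WT libraries of the 10 genes. Its log2 fold change was 1.99 (SE 0.24, limma adjusted p = 0.0040).

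Tdgf1 (ENSMUSG00000032494, chr9:110842114-110848662, minus strand, mm9) was measured at 1257 and 302 counts in WT and at 2045 and 2624 in Taf4a-/-. The mutant libraries lay above both WT libraries, by 1.63-fold at the nearest, and the WT libraries lay 4.16-fold apart. The log2 fold change of 1.91 had an SE of 0.60 and a 95% interval from 0.44 to 3.38, and Tdgf1 missed the threshold (limma adjusted p = 0.0600). This call turned on single libraries. Without WT replicate 1 the log2 fold change was 2.93 (limma adjusted p = 0.0146), without WT replicate 2 it was 0.88 (adjusted p = 0.0627), without Taf4a-/- replicate 1 it was 2.09 (adjusted p = 0.0341) and without Taf4a-/- replicate 2 it was 1.73 (adjusted p = 0.0738). On recovered reads with limma's voom weights it passed narrowly, with an adjusted p of 0.0495.

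Of 15 other tested genes of the Nodal pathway, 3 were called higher and 1 lower, beside 11.3% and 17.3% of all genes tested. Whether the shares differ was not tested. The median change of the 15 was 0.18 on the log2 scale. The 3 were the Nodal antagonists Lefty1 (2.08, limma adjusted p = 0.0285) and Lefty2 (2.06, adjusted p = 0.0468) and the ligand Nodal (1.38, adjusted p = 0.0388), and the 1 was Furin (-0.56, adjusted p = 0.0237), a protease that cleaves pro-Nodal. Cer1, another Nodal antagonist, stood at 151 and 17.7 counts in WT and at 46.0 and 27.6 in Taf4a-/- and was not called (-0.54), nor was Cfc1, the co-receptor paralogue of Tdgf1, at 174 and 22.9 in WT and 48.0 and 82.9 in Taf4a-/- (-0.01, 95% interval -2.19 to 2.16). The receptors Acvr1b, Acvr2a and Acvr2b and the effectors Smad2, Smad3 and Smad4 were not called either. Without WT replicate 1, 6 of the 15 were called higher, and without Taf4a-/- replicate 2 only 1. With either mutant library left out, Furin was not called.

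Tcl1, the Akt co-activator, had the lowest mean level per kilobase of the 10 genes in both genotypes and a log2 fold change among the largest. At chr12:106454967-106460947 on the minus strand (ENSMUSG00000041359, mm9) it was measured at 17.5 and 12.5 counts in WT and at 142 and 157 in Taf4a-/-, from 20, 12, 145 and 142 reads. The log2 fold change was 3.25 (SE 0.34, limma adjusted p = 0.0028). Mtcp1, a paralogue of Tcl1, was called higher (1.14, limma adjusted p = 0.0207), Akt1, a kinase that Tcl1 binds, was called lower (-0.52, adjusted p = 0.0227), and Akt2 was not called. Without Taf4a-/- replicate 2 neither Mtcp1 nor Akt1 was called, and Akt1 was not called either without WT replicate 2 or without Taf4a-/- replicate 1.

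**Figure D2:**
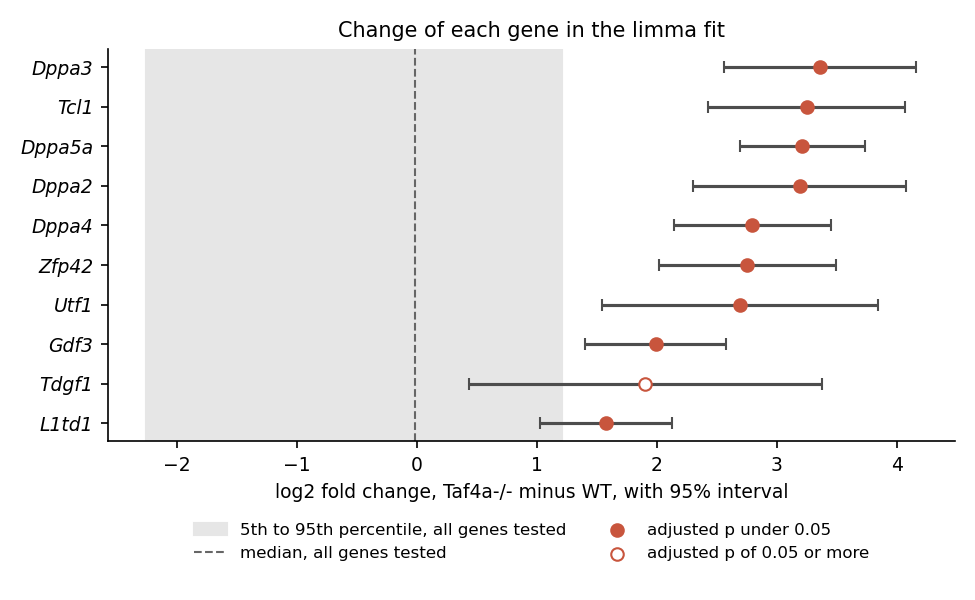
Log2 fold change (Taf4a-/- minus WT) of each gene with its 95% interval from limma, ordered by size, beside the 5th to 95th percentile (shaded) and the median (dashed) of all 16926 genes tested. Filled points passed an adjusted p of 0.05. The open point is Tdgf1, with the widest interval of the 10 (0.44 to 3.38), and all 10 points lie to the right of the shaded range, which ends at 1.21.

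Levels between genes were compared per kilobase of exon. The 10 genes fell into a high and a low tier in both genotypes. Dppa5a, Utf1, Tdgf1 and L1td1 stood between 113 and 653 normalised counts per kb in the WT libraries and between 915 and 4901 in the Taf4a-/- libraries. The remaining 6 genes stood between 8.96 and 30.3 per kb in WT and between 102 and 251 in Taf4a-/-, so the tiers did not overlap within a genotype. Within the high tier Dppa5a led in the mutant libraries with a mean of 4264 counts per kb, followed by Utf1 (1285), Tdgf1 (1213) and L1td1 (965), and the values of Utf1 and Tdgf1 overlapped across the mutant libraries. In WT the order of these means was Dppa5a (458), Tdgf1 (405), L1td1 (331) and Utf1 (228), and the libraries of neighbouring genes overlapped. In the low tier the mutant means ran from Dppa3 (225) over Dppa4 (171), Zfp42 (135), Gdf3 (121) and Dppa2 (116) to Tcl1 (107), and from Zfp42 downwards neighbouring genes overlapped in their libraries. The WT means of this tier ran from Gdf3 (30.0) over Dppa4 (24.2), Dppa3 (21.0), Zfp42 (19.8) and Dppa2 (12.6) to Tcl1 (10.8).

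The spread between replicates was uneven. WT replicate 1 lay above WT replicate 2 for 9 of the 10 genes, with a median log2 difference of 0.49, against -0.02 over all genes tested. Tdgf1 (2.05) and Utf1 (1.59) differed by more than 1 on the log2 scale, as did 6.96% of all genes, and Gdf3 (-0.03) was level. Between the Taf4a-/- libraries no gene of the 10 differed by more than 0.43, and replicate 1 was the higher for 3 of them. Other genes of pluripotent cells differed between the WT libraries to varying degrees. Pou5f1, the POU factor at the centre of the pluripotency network, stood at 1097 and 278 counts in the WT libraries, a 3.94-fold difference, and 9 tested genes of the primed epiblast differed by a median of 1.94 on the log2 scale. The 14 core pluripotency factors differed by a median of 0.39, with Klf4 (-0.84), Nr5a2 (-0.87) and Tcfcp2l1 (-0.63) the other way and Klf2 (0.03) and Zfx (-0.01) level. Among markers of differentiated cells the median was 0.56 for visceral endoderm, 0.54 for trophoblast, -0.40 for fibroblasts, -0.30 for macrophages and -0.09 for cardiomyocytes. Whether cell composition had a part in the spread was not tested.

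**Figure D3:**
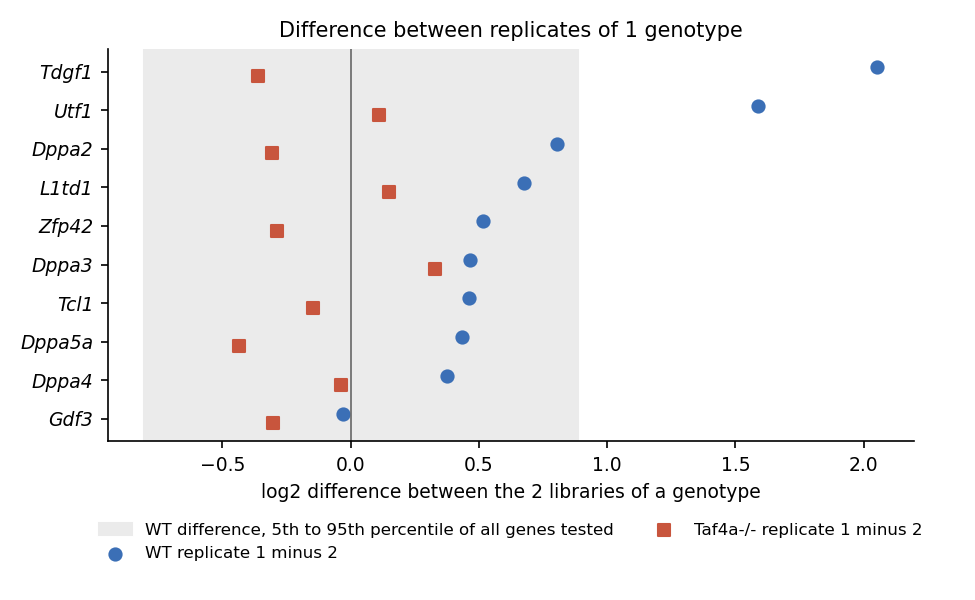
Log2 difference between replicates 1 and 2 for each of the 10 genes, in WT (blue circles) and Taf4a-/- (red squares), with the 5th to 95th percentile of the WT difference over all genes tested shaded. Tdgf1 and Utf1 lie outside the shaded range in WT (2.05 and 1.59), and all red squares lie within 0.43 of 0.

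The genes nearest in pattern were found by the root mean square distance of their centred log2 profiles over the 4 libraries from the median profile of the 10 genes. Outside the 10, the nearest was Dnmt3l, the catalytically inactive partner of the de novo DNA methyltransferases, at a distance of 0.10. It was measured at 269 and 157 counts in WT and at 1694 and 1847 in Taf4a-/-. Next came Zyg11a (31.6 and 15.6 in WT, 166 and 173 in Taf4a-/-), 4930519F16Rik (7.01 and 3.12, 38.2 and 39.8), Gm9788 (3.51 and 2.08, 28.4 and 24.3) and Clca4 (3.51 and 2.08, 31.3 and 33.2). The last 3 passed the filter through the mutant libraries alone, and Gm9788 is itself a copy of Dppa2. Among the 10 genes Zfp42 and Dppa4 lay closest to their common profile, both at 0.13, and Tdgf1 (0.71), L1td1 (0.68) and Gdf3 (0.54) lay farthest. With 4 libraries such a likeness describes little more than the step between genotypes.

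Most of these genes have close copies elsewhere in the genome, which bears on what a read count of them means. Transcripts of the 10 genes were aligned to the NCBIM37 assembly (mm9), and matches of at least 50 nt and 95% identity outside the gene itself were collected. Matching sequence covered 91.6% of the Dppa2 transcript (2 copies), 98.1% of Dppa3 (1 copy), 93.2% of Dppa4 (2 copies), 98.2% of Dppa5a (4 copies), 78.4% of Zfp42 (1 copy) and 51.7% of Tdgf1 (1 copy). L1td1 (7.85%) and Gdf3 (6.12%) had short matches only, and Utf1 and Tcl1 had none. How reads that fit a gene and its copy equally well were counted is not given in the sources used here, so the values of the first 6 genes are uncertain between gene and copy.

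Entries of the table that hold copies of Dppa2, Dppa3, Dppa4 or Dppa5a were higher in both mutant libraries than in both WT ones. Gm6083, a copy of Dppa5a, stood at 89.4 and 69.6 counts in WT and at 651 and 776 in Taf4a-/-, between 25.6% and 29.0% of the parent gene in each library. Gm6269, a copy of Dppa3, stood at 6.14 and 6.23 in WT and at 80.3 and 66.4 in Taf4a-/-. For Dppa4 the copies were Gm14058 (5.26 and 2.08 in WT, 50.9 and 64.1 in Taf4a-/-) and Gm5501 (1.75 and 1.04, from 2 and 1 reads, against 29.4 and 31.0), and for Dppa2 the copy was Gm9788. Of these copies only Gm6083 had a WT mean of at least 10. The other 4 passed the filter through the mutant libraries alone, so no test of them is given. Dppa5b, at 0 reads in WT and at 1.96 and 3.32 normalised counts in Taf4a-/-, was below the filter. The short match of L1td1 lies in Chchd3, a gene for a mitochondrial protein, which was measured at 1743 and 1701 in WT and at 1497 and 1593 in Taf4a-/-, the direction opposite to L1td1. When the counts of the copies were added to the parent gene, the mutant to WT ratio of means was 9.20 for Dppa2, 11.0 for Dppa3, 8.28 for Dppa4 and 9.24 for Dppa5a, against 9.17, 10.7, 7.05 and 9.31 for the genes alone. Other divisions of the reads, and copies without an entry, were not examined.

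**Figure D4:**
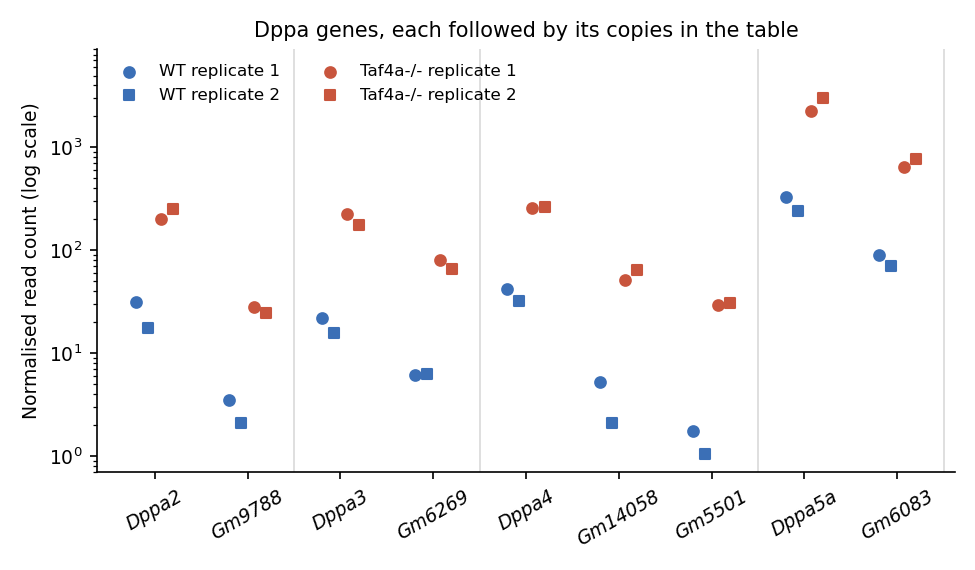
Normalised read count (log scale) of Dppa2, Dppa3, Dppa4 and Dppa5a in each library, each followed by its copies that passed the filter, with WT in blue, Taf4a-/- in red, replicate 1 as circles and replicate 2 as squares. The copies stand lower than their parent genes, with Gm6083 the highest of them (651 and 776 in Taf4a-/-). In all 5 the red points lie above the blue ones, as at 34.5% of all genes tested. All but Gm6083 passed the filter through the mutant libraries alone, so their direction is no test.

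Promoter sequence is shown for 3 of the 10 genes, to set the one with a POU-factor octamer beside the ones richest and poorest in CpG. RefSeq windows of 300 bases (250 before to 50 after the start, GRCm38.p6, a later build than the mm9 positions above) were found for L1td1, Utf1, Zfp42, Tdgf1 and Tcl1, and not for Dppa2, Dppa3, Dppa4, Dppa5a or Gdf3. Each window was searched on both strands for the TATA box (TATAAA), the octamer that POU factors such as Pou5f1 bind (ATTTGCAT), the core letters of a Sox site (CATTGT) and the palindromic E-box (CACGTG). The only match in the 5 windows was the octamer in Zfp42, with its first base at position -186. Among all 27025 windows, 1.75% hold the octamer, 14.2% the TATA box, 12.8% the Sox letters and 7.24% the E-box. The Utf1 window had 17 CpG, Tdgf1 had 7, L1td1 14, and Zfp42 and Tcl1 11 each, against a median of 7 over all windows. The 250 bases before each start follow, 5′ to 3′ on the strand of the gene, in GRCm38.p6 from chr8:43307010-43307259 (minus), chr7:139943606-139943855 (plus) and chr9:110946159-110946408 (minus). Capitals mark the octamer in Zfp42 and every CpG in Utf1 and Tdgf1.
Zfp42: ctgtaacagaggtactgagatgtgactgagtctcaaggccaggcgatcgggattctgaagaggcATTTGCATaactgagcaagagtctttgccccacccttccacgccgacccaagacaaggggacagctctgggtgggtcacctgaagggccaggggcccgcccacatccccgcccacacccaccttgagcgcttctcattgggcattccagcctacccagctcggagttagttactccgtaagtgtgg
Utf1: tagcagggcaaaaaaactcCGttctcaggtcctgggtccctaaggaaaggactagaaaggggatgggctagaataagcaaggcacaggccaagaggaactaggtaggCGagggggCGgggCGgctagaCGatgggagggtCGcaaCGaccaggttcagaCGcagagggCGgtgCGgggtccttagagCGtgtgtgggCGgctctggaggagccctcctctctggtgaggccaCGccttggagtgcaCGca
Tdgf1: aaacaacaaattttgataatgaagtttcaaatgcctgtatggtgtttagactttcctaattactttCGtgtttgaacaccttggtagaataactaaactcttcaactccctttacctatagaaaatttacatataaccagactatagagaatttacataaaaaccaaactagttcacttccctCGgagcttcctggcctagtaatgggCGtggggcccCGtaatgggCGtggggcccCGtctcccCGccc
The matches describe letters only, and no binding or methylation was measured in these libraries.

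Genes beside the 10 were mixed in direction. Within 2 genes on either side of the 10, 14 other genes were tested. Of these 4 were called higher (6 under quantile normalization) and 2 lower, beside 11.3% and 17.3% of all genes, the median change was 0.26 on the log2 scale, and without WT replicate 2 only 1 was called lower. Whether the shares differ from those of all genes was not tested. Morc1, a germ cell chromatin gene whose start lies 121 kb from that of Dppa2, was measured at 26.3 and 17.7 counts in WT and at 234 and 189 in Taf4a-/- (log2 fold change 3.23, limma adjusted p = 0.0027). Ooep, an oocyte gene of the KH-domain family that starts 10.5 kb from Dppa5a, was measured at 88.5 and 43.6 in WT and at 395 and 439 in Taf4a-/- (2.72, adjusted p = 0.0049). Kndc1, next to Utf1, was also called higher (1.95, limma adjusted p = 0.0085), as was Gm7204 (0.63, adjusted p = 0.0107), next to Dppa4. On chromosome 6, Gdf3 and Dppa3 start 16.3 kb apart, and Nanog starts 81.1 kb from Dppa3. Next to Gdf3 on its other side Apobec1, whose start is 7.64 kb away, was measured at 319 and 435 counts in WT and at 30.3 and 46.5 in Taf4a-/- (-3.28, limma adjusted p = 0.0023). Kank4, near L1td1, was lower as well (-1.22, adjusted p = 0.0135).

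Other genes of pluripotent and germ cells gave a mixed picture. Over all genes tested, 11.3% were called higher and 17.3% lower. Of 14 core pluripotency factors, 9 were called higher, and the median change was 1.42 on the log2 scale. The largest were the nuclear receptors Nr0b1 (3.77, limma adjusted p = 0.0035) and Esrrb (3.48, adjusted p = 0.00083) and the PR-domain protein Prdm14 (3.54, adjusted p = 0.0075). Klf4, Klf5, Tcfcp2l1, Nr5a2 and Zfx were not called. Of 9 tested primed epiblast genes only Lef1 was called higher (1.82, limma adjusted p = 0.0241), and leaving out 1 library gave 8 calls (without WT replicate 1), 2 (without WT replicate 2) and 3 (without Taf4a-/- replicate 2). There were 3 calls with a pseudocount of 10, 4 under quantile normalization and 4 with voom. The median change of these 9 genes was 1.39 on the log2 scale, beside 1.42 for the core factors, and no difference between the lists was tested. Of 16 tested germ cell genes, 3 (Nanos3, Sycp1 and Mael) passed the filter through the mutant libraries alone. Of the 13 with a mean of at least 10 in both genotypes, 8 were called higher and 2 lower, among them Tex19.1 (2.86, limma adjusted p = 0.0047) and Tdrd12 (2.66, adjusted p = 0.0027), both of transposon control. Mael, of the same function, stood at 6.14 and 7.27 counts in WT and at 67.5 and 81.8 in Taf4a-/-. Rhox6 (-1.02, limma adjusted p = 0.0210) and Ifitm3 (-0.75, adjusted p = 0.0479) were the 2 that were lower. Over these 13 genes there were 2 calls higher and 0 lower without WT replicate 2, and 4 and 1 without Taf4a-/- replicate 1. Without Taf4a-/- replicate 2, 0 were lower, as under quantile normalization.

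Genes of the 2-cell stage were near the detection limit. Of 11 such genes in the table only Zscan4d, a cluster member of early embryos, passed the filter, at 1.75 and 4.16 counts in WT and at 12.7 and 35.4 in Taf4a-/-. It passed through the mutant libraries alone, so its test is not given. Summed over the 11 genes the counts were 4.38 and 8.31 in WT and 36.2 and 121 in Taf4a-/-. Of 8 genes of DNA methylation, 2 were called higher, Dnmt3l (3.10, limma adjusted p = 0.0015) and the demethylating enzyme Tet1 (1.06, adjusted p = 0.0084), and 5 were without WT replicate 1. In the main fit 11.3% of all genes tested were called higher. Uhrf1, the partner of Dppa3, stood at 2938 and 1947 in WT and at 3519 and 3744 in Taf4a-/- and was not called (0.60, limma adjusted p = 0.0699).

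Cardiomyocyte, visceral endoderm and most fibroblast markers were called lower beside these genes. Among all genes tested, 17.3% were called lower and 11.3% higher. All 12 cardiomyocyte markers were called lower (median log2 fold change -2.94), as were 7 of 10 fibroblast markers, whose sums were 516027 and 729732 in WT and 186158 and 205195 in Taf4a-/-. Most of the mutant sums was Fn1, an extracellular matrix gene that was not called, at 83244 and 130583 counts in WT and 136047 and 142736 in Taf4a-/-. Of 10 visceral endoderm markers, 7 had a mean of at least 10 in both genotypes and all 7 were called lower, with sums over the 10 of 95506 and 80575 in WT and 1719 and 1059.5 in Taf4a-/- and with Alb at 0 reads in both mutant libraries. Of 10 macrophage markers, 2 had such a mean, Csf1r and Cd68, and both were called lower, with sums over the 10 of 11097 and 13146 in WT and 180.1 and 227 in Taf4a-/- and with C1qa at 0 reads in both. None of 8 trophoblast markers was called in the limma fit at an adjusted p under 0.05, 4 had an unadjusted p under 0.05, and leaving out 1 library gave 2 higher (without WT replicate 1) or 1 higher and 1 lower (without Taf4a-/- replicate 1), and quantile normalization gave 1 higher. Of 10 housekeeping genes 3 were called higher and 1 lower, with a median of 0.10, and without WT replicate 2 there were 0 calls. Whether the cells behind these markers had a part in the difference at the stem cell genes was not tested.

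**Figure D5:**
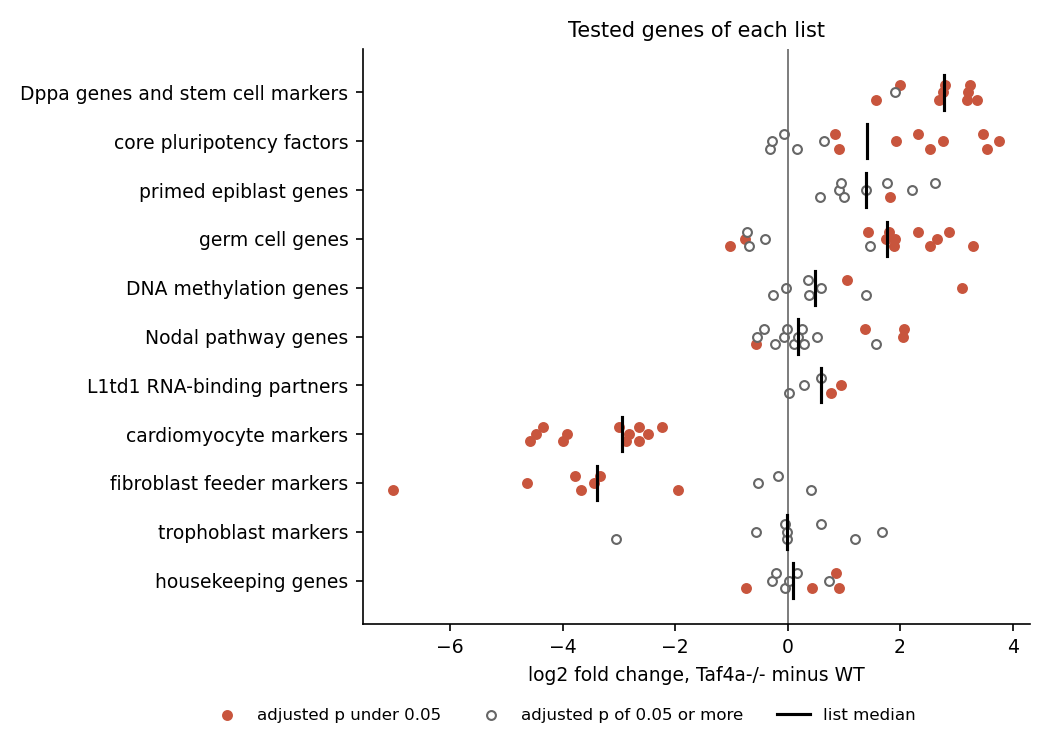
Log2 fold change (Taf4a-/- minus WT) of each tested gene in the lists with at least 4 tested genes and no gene at 0 reads in both mutant libraries, with filled points for an adjusted p under 0.05 in limma and a bar at each list's median. The germ cell genes Nanos3, Sycp1 and Mael passed the filter through the mutant libraries alone, and the trophoblast marker Elf5 through WT alone. The fill of their points and their part in a list's median are therefore no test. The Dppa genes and stem cell markers lie between 1.58 and 3.36 with a median of 2.78, core pluripotency factors have a median of 1.42, and the 12 cardiomyocyte markers all lie below 0.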

How the data were processed

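RNA-seq was made from polyA RNA of 4 libraries with 2 replicates per genotype. Per the labels the authors used CASAVA 1.8, TopHat 1.3.3, the mm9 genome, HTSeq 0.5.3p1 and DESeq, and deposited read counts divided by a size factor for each library. Multiplied back, 100% of values were whole reads within 0.01 of a read, giving 27733034 and 24537026 reads for WT and 24251499 and 21732746 for Taf4a-/-. limma 3.58.1 in R 4.3.3 was fitted to log2(value + 1) for the 16926 genes averaging 10 or more. It used a trended prior and Benjamini-Hochberg adjustment at 0.05. Simulated counts used to test the code had the same relative spread in every gene. They do not show how the fit treats genes of uneven spread. Fold changes are on the log2(value + 1) scale and understate the change of low genes. Same-numbered replicates did not deviate together (correlation 0.0118). Close copies were found with BLAST 2.17.0, gene positions come from the GENCODE annotation of the same assembly, which held all 24637 identifiers, and promoters from RefSeq. The genes and lists were chosen with earlier results of these data known. Named genes are the 10, Taf4a, at most the 3 largest called changes per list besides those a result turns on, genes within 2 places of the 10, and the 5 nearest in profile. Alternatives were other pseudocounts, filters, scalings and thresholds, a replicate block, voom and leaving out each library. No protein sequence was used, and Zscan4a, Tcstv1, Tcstv3, Tdpoz4, Rhox5, Pou5f2, Gdf1, Cripto3, Tcl1b1, Tcl1b3, Tcl1b4, Tcl1b5 and Yy2 were not analysed here. A gene of a list is not reported here.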

Additional observations from a re-analysis of the deposited data

How the results depend on the processing

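Across 12 alternatives no gene of the 10 changed direction, between 8 and 10 were called higher and none lower, and their median log2 fold change ranged from 2.55 to 3.22, both ends being leave-one-out values (2.55 without WT replicate 2, 3.22 without WT replicate 1). Dppa2, Dppa3, Dppa4, Dppa5a, Zfp42, L1td1, Gdf3 and Tcl1 were called in every alternative, Utf1 in all but an adjusted p under 0.01, and Tdgf1 without WT replicate 1, without Taf4a-/- replicate 1, with voom and, at an adjusted p of 0.0411, with the replicate block. The replicate block gave 1536 genes higher and 2657 lower over all genes, against 1906 and 2928, 5 primed epiblast genes higher, and 1 trophoblast marker higher and 1 lower, and the replicate numbers pair no samples by any label. At an adjusted p under 0.01 the counts over all genes were 331 higher and 1119 lower. With each library left out in turn they ranged from 624 to 2476 higher and from 1222 to 3038 lower, where a group of 1 library is assumed to vary like the other. Quantile normalization moved the median of all genes from -0.01 to 0.11 on the log2 scale, and the log2 fold changes of the 10 genes by differing amounts (L1td1 from 1.58 to 1.61, Gdf3 from 1.99 to 2.31). voom was chosen after seeing the data. The planned edgeR and DESeq2 alternatives were not run, and voom on the recovered reads took their place. With 2 libraries per genotype, p-values rest on a spread borrowed across genes. The least precise log2 fold changes were those of Tdgf1 (SE 0.60) and Utf1 (SE 0.47), and the WT values of Tcl1, Dppa3 and Dppa2 rest on the fewest reads.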
